A study of Mus musculus with 4 samples.

Results

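Crabp1-positive fibroblast-like cells were a minority of the cultured muscle progenitor cells (MPC), and they were picked out by the RNA of Crabp1, a small cytosolic protein that binds retinoic acid. In the MPC library, barcodes passed with at least 1000 unique molecular identifiers (UMIs, 1 per captured RNA molecule) and 500 genes, and with no more than 10% of UMIs from mitochondrial genes. The 10% of these cells with the highest share of UMIs from Rgs5, a pericyte gene, were then left out, and a cell with at least 10 Crabp1 UMIs counted as Crabp1-positive. This gave 498 of 8905 cells, or 5.59% (exact binomial interval 5.12 to 6.09%). They are set against 5169 Pax7-positive cells of the same library, which had 0 Crabp1 UMIs and at least 3 UMIs of Pax7, the paired-box factor of muscle stem cells. The names do not mean that Pax7 divides the groups, since 253 of the 498 Crabp1-positive cells (50.8%) also had at least 3 Pax7 UMIs. Measured values thus chose both groups of cells, so every difference between them below is a description without a test.

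The series holds 4 single-cell RNA libraries (10x Genomics 3' v3.1) of muscle cells from Pax7-nGFP mice, which carry a nuclear green fluorescent protein reporter of Pax7, with 1 library per group. The MPC culture was begun from cells of a male mouse aged 16 weeks. The cells spent 2 passages in myoblast culture and another 5 in MPC medium, which held 5 µM Forskolin, 5 µM Repsox, 3 µM CHIR9901 (spelled as in the labels) and 10 ng/ml basic FGF. The myoblast library came from a male mouse of 16 weeks after 2 passages in myoblast medium with 10 ng/ml basic FGF. The activated satellite cells (ASC) were GFP+ cells sorted from 17 tibialis anterior muscles of male and female mice aged 18 to 24 weeks, 3 days after cardiotoxin injury. The freshly isolated satellite cells (fiSC) were GFP+ cells sorted from limb muscles of 3 pooled male mice aged 13 weeks. A GFP sort is named for the ASC and fiSC libraries, and whether the cultures were begun from sorted cells is not known here. The mice of a library were thus pooled or single, and cells of a library are not replicates. No standard deviation or p-value can be given, and all intervals below are 95% intervals that cover counting error only.

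After the filter on barcodes 9895 MPC, 2412 myoblast, 6743 ASC and 2251 fiSC cells remained, with median depths of 13751, 22957.5, 19853 and 8831 UMIs per cell. The Crabp1-positive cells held 12449183 UMIs in all, with a median of 19873.5 UMIs and 5159.5 genes per cell, against 84117011 UMIs, 13372 UMIs per cell and 4028 genes per cell in the Pax7-positive cells. Their median mitochondrial share was 4.29%, against 3.65%. Levels are given as the UMIs of a gene per 1000000 UMIs, both summed over the cells of a group (CPM), so that the depth of the group is divided out. Of the kept MPC barcodes 5 also occurred among the kept fiSC barcodes, 18 among ASC and 11 among myoblast, and 0 of these belonged to Crabp1-positive cells.

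Fibroblasts are the connective tissue cells that lay down collagens, proteoglycans and the enzymes that remodel them. In skeletal muscle they are known as Pdgfra-positive fibro-adipogenic progenitors, which lie between the fibres and release signals to satellite cells during repair. Muscle stem cells are instead known by Pax7, and the myogenic factors Myf5, Myod1 and Myog lead them into fusion and muscle fibre formation. Crabp1 is known from dermal and other mesenchymal fibroblasts and from the embryo, where it binds retinoic acid in the cytosol.

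The promoters of the genes that define these cells are shown because Crabp1 chose the cells and Twist2 and Col6a3 were the markers given with it. RefSeq promoter sequences (GRCm38.p6, another build than the GRCm39 of the reads) were at hand for 3 of the 4 marker genes, all but Dcn. The window is the 250 bases before the start of the gene, 5′ to 3′ on the strand of the gene, at chr9:54764498-54764747 on the + strand for Crabp1 and at chr1:91801211-91801460 on the + strand for Twist2. Capitals mark GC boxes, the letters GGGCGG on either strand, where Sp-family factors are known to bind.
Crabp1: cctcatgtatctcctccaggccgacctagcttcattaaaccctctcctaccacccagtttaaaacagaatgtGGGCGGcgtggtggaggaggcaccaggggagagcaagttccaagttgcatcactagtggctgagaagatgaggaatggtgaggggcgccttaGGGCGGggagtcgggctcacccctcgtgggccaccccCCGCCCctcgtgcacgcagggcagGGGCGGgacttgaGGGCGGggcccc
Twist2: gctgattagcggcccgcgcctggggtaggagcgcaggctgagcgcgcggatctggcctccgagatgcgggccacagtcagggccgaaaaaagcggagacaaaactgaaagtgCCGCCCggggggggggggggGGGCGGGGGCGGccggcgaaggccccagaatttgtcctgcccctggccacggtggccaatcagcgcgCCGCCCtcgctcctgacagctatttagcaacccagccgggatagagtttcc

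The Crabp1 window held 5 GC boxes and the Twist2 window 4, with G+C contents of 63.6 and 68.8%. Over 32851 promoter windows of the same length, 32.7% held a GC box, 4.09% held at least 4 and 1.93% at least 5, and the median G+C content was 52.4%. The Col6a3 window (chr1:90843972-90844221, − strand) held none. None of the 3 windows held a TATA box (TATAAA), which 12.4% of all windows held on either strand. A cAMP response element (TGACGTCA), present in 1.55% of all windows, was not found in the 3 either. The same went for an E-box spelled CAGATG (14.4% of all windows). A match is a stretch of letters and not a bound site.

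Crabp1 RNA split the library into cells with almost none and cells with a great deal. Of the 8905 cells 7249 (81.4%) had 0 Crabp1 UMIs, 995 had 1 and 98 had 2, while 65 had 3 to 9 UMIs. Among the Crabp1-positive cells the count ran from 10 to 410 UMIs, with a median of 107.5 and quartiles of 68.25 and 156, and 436 of the 498 cells had at least 40. The threshold lay in the sparse stretch between: 3 cells had 9 Crabp1 UMIs, and 4 cells had 10. Crabp1 was at 4659.6 CPM in the Crabp1-positive cells and at 0 in the Pax7-positive cells by the rule itself.

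**Figure D1:**
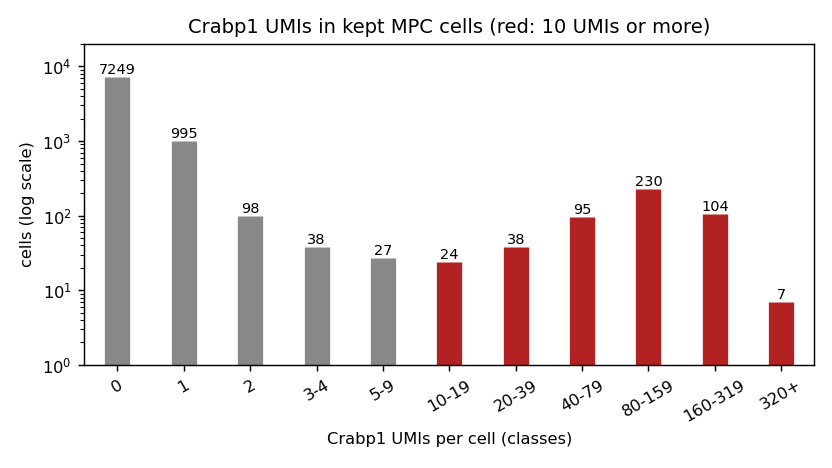
Kept MPC cells (log scale) by class of Crabp1 UMIs per cell, with the number of cells above each bar; red bars are the Crabp1-positive cells and grey bars the cells below 10 UMIs. The 230 cells with 80 to 159 UMIs form the tallest red bar, and the 24 cells with 10 to 19 and the 27 cells with 5 to 9 lie in the trough.

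Dcn, the small collagen-binding proteoglycan decorin, was nearly restricted to the Crabp1-positive cells. It had 729 CPM (714 to 744) in them, against 2.87 CPM in the Pax7-positive cells. A Dcn UMI was seen in 95.4% of the Crabp1-positive cells and in 3.58% of the Pax7-positive cells, and after every cell was thinned to 2000 UMIs in 62.6% and 0.387% (495 and 5162 cells, with 3 and 7 shallower cells left out). Twist2, a repressor of the basic helix-loop-helix family found in mesenchyme, gave 476 CPM (464 to 489) against 1.72 CPM, and 56.2% against 0.271% of thinned cells. The collagen VI chain gene Col6a3 was less restricted, with 1477 CPM in Crabp1-positive and 67.7 CPM in Pax7-positive cells, and 87.3% against 10.7% of thinned cells. At least 3 UMIs of Lum, the corneal and connective tissue proteoglycan lumican, occurred in 47.8% of the Crabp1-positive cells and in 0 of 5169 Pax7-positive cells, where the exact interval reaches 0.0713%. Pdgfra, the receptor that marks fibro-adipogenic progenitors, reached 3 UMIs in 57.0% and 0.116% of the cells.

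These genes sat together in the same cells when read from the other side. Of 307 cells with at least 10 Dcn UMIs, 305 (99.3%) were Crabp1-positive, which is 61.2% of the Crabp1-positive cells. Of 404 cells with at least 3 UMIs each of Dcn, Twist2 and Col6a3, 399 (98.8%) were Crabp1-positive, or 80.1% of the Crabp1-positive cells. The genes also climbed with the Crabp1 class. From 0 through 1 to 2, 3 to 9, 10 to 19 and at least 20 Crabp1 UMIs, Dcn stood at 2.76, 4.51, 31.3, 94.4 and 764 CPM. Twist2 over the same classes stood at 1.52, 4.31, 21.9, 94.4 and 498 CPM. By Dcn and Twist2 CPM, the class just under the threshold was closer to the Crabp1-negative cells. The class just over it lay well below the bulk of the Crabp1-positive cells. Col6a3 went otherwise: at least 3 UMIs of it occurred in 66.2% of the cells with 3 to 9 Crabp1 UMIs. The shares were 10.8% at 0 Crabp1 UMIs and 96.6% in the Crabp1-positive cells. The 1172 MPC barcodes with under 1000 UMIs (median 621.5 UMIs) held 123 CPM of Crabp1 and 11.7 CPM of Dcn, and the part of free RNA in the classes of 1 to 9 Crabp1 UMIs was not tested.

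Outside the MPC library such cells were rare or not seen. At least 10 Crabp1 UMIs occurred in 536 of 9895 MPC cells when the Rgs5-high cells were left in (5.42%), in 3 of 2412 myoblast cells (0.124%, 0.0257 to 0.363%), in 0 of 6743 ASC cells and in 0 of 2251 fiSC cells. Taken as 3 counts of the total, a count of 0 allows a share of up to 0.0445% in ASC and 0.133% in fiSC, and the exact intervals reach 0.0547% and 0.164%. Over whole libraries Crabp1 stood at 385 CPM in MPC, 2.63 in myoblast, 1.06 in ASC and 0.0482 in fiSC. The highest single cell had 410 Crabp1 UMIs in MPC, 25 in myoblast, 4 in ASC and 1 in fiSC. The culture and the library cannot be told apart here.

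Most measured fibroblast markers were higher in the Crabp1-positive cells, while some of the best known were near 0. Of 22 fibroblast marker genes, 16 were measured, meaning at least 10 CPM in either group. Of these, 14 were higher in the Crabp1-positive cells by the size used throughout, at least 2-fold on the log2 scale of CPM plus 5 with at least 10 CPM in the higher group, and 0 were lower. The median log2 ratio of the 16 was 3.41, beside −0.06 for all 9490 genes measured. The 14 and the median include Dcn, Twist2 and Col6a3, the markers given with Crabp1, which are no separate evidence for the label. The others higher were Pdgfra, Col1a1, Col3a1, Lum, Thy1, Ly6a, Dpt, Gsn, Prrx1, Fbn1 and Mmp2. Thy1, a surface glycoprotein of fibroblasts, had 372 CPM in Crabp1-positive and 28.4 CPM in Pax7-positive cells, Mmp2 (gelatinase A) 321 and 14.6 CPM, and Dpt (dermatopontin) 46.2 and 0.107 CPM. Prrx1, a limb mesenchyme homeobox gene, was present in both groups, at 779.6 and 316 CPM.

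Col1a2, which encodes the partner chain of Col1a1 in type I collagen, was nearly missing, at 2.09 CPM (1.36 to 3.06) in Crabp1-positive cells and 3.86 CPM in Pax7-positive cells, while Col1a1 had 379 and 5.91 CPM. The progenitor surface gene Cd34 had 2.89 and 0.0238 CPM, and the adventitial fibroblast gene Pi16 had 0.482 and 0.273 CPM. Also near 0 were Mfap5, a microfibril protein (2.25 and 1.72 CPM), Clec3b (tetranectin, 0.161 and 0.309 CPM) and Smoc2 (0.241 and 0.416 CPM). Fbln1 (fibulin 1) stood at 96.0 CPM against 143 CPM. The cells are therefore called Crabp1-positive cells here, since their rule and leading genes describe them and the marker list does so only in part.

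Sorted muscle held a few Dcn-positive cells to set beside them. With at least 3 Dcn UMIs and 0 Pax7 UMIs, 8 fiSC cells and 12 ASC cells were found, a rule chosen after seeing the data because asking also for a Pdgfra UMI left 7 and 11. Col1a2 had 2.09 CPM in the Crabp1-positive cells, against 3487 CPM in the ASC and 7185 CPM in the fiSC cells. Crabp1 had 4659.6 CPM, against 2.27 and 0, and Twist2 had 476 CPM, against 15.9 and 23.0. Pdgfra (167 CPM, against 196 and 226) and Lum (173 CPM, against 207 and 647) were present in all 3 groups, and Dcn, which chose the sorted cells, had 729 CPM, against 1606 and 4971. Postn, the matrix protein periostin of activated fibroblasts, had 13.3 CPM in the Crabp1-positive cells, against 448 in the ASC and 7415 in the fiSC cells. Here the library and the group of cells cannot be told apart, and the sorted cells are few.

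Across all genes, 842 of 9490 (8.87%) were higher and 258 (2.72%) lower in the Crabp1-positive cells than in the Pax7-positive cells, and 827 of the 842 and 228 of the 258 held in each of 3 repeats (equal depth, Crabp1-positive cells without Pax7 UMIs, and TMM scaling). These shares come from the contrast that chose the cells. After Crabp1 itself, the gene with the highest log2 ratio was Mmp3 (stromelysin 1), at 1222 CPM in Crabp1-positive and 2.23 CPM in Pax7-positive cells (log2 ratio 7.41). Next to Dcn and Twist2 came Slpi, a secreted inhibitor of leukocyte proteases (459 and 1.58 CPM, 6.14), and Tafa1, a secreted protein known mainly from brain (377 and 0.594 CPM, 6.09). Grem1, an antagonist of BMP ligands, had 303 and 1.28 CPM (5.61), and Ptgs2, the inducible cyclooxygenase of prostaglandin synthesis, had 297 and 2.08 CPM (5.42). Most of the other leading genes encode secreted or matrix proteins: Ccl2, Ccl7, Col1a1, Lum, Thbs2, Fgf7 and Spink4 had between 138 and 379 CPM in the Crabp1-positive cells, against 0.392 to 5.91 CPM. The rest were Ebf1, a transcription factor of mesenchymal and B lineage cells (441 and 10.5 CPM), the calcium channel gene Cacna1c (239.9 and 4.98 CPM), Pdgfra, Pid1 (214 and 3.01 CPM) and Pdzrn4 (222 and 2.83 CPM), with log2 ratios of 4.62 to 4.85.

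Matrix genes were largely higher in the Crabp1-positive cells. Higher levels were seen for 16 of 19 measured collagen genes and a lower level for 1, and the median log2 ratio was 2.01. Col3a1, the fibrillar collagen of soft tissue, had 1705 CPM in Crabp1-positive and 419 CPM in Pax7-positive cells, Col6a2 762 and 43.1 CPM, and Col12a1, which sits on collagen fibrils, 184 and 6.23 CPM. Basement membrane collagens were higher too, with Col4a1 at 1419 and 455 CPM and Col18a1 at 703 and 279 CPM. The collagen that was lower was Col26a1, at 39.6 against 134 CPM. Among 30 measured matrix glycoprotein and proteoglycan genes 18 were higher and 3 lower (median 1.57). Spp1 (osteopontin) was the most abundant, at 2514 CPM against 252 CPM, followed by Sparc at 1839 against 643 CPM. Tnc (tenascin C) had 553 and 128 CPM and Fbn1 (fibrillin 1) 547 and 79.5 CPM. Lama2, the laminin chain of the muscle basement membrane, was lower, at 185 against 514 CPM. So was Mgp, the matrix Gla protein that inhibits calcification, at 243 against 1101 CPM.

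Enzymes that cut or protect the matrix went with it. Of 23 measured genes of matrix enzymes and their inhibitors 13 were higher and 0 lower (median 1.16). Timp3, an inhibitor of metalloproteinases bound to the matrix, had 565 CPM in Crabp1-positive and 20.7 CPM in Pax7-positive cells. Timp1 had 416 and 94.8 CPM, and Adamts2, which trims procollagen, had 350.3 and 27.9 CPM.

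**Figure D2:**
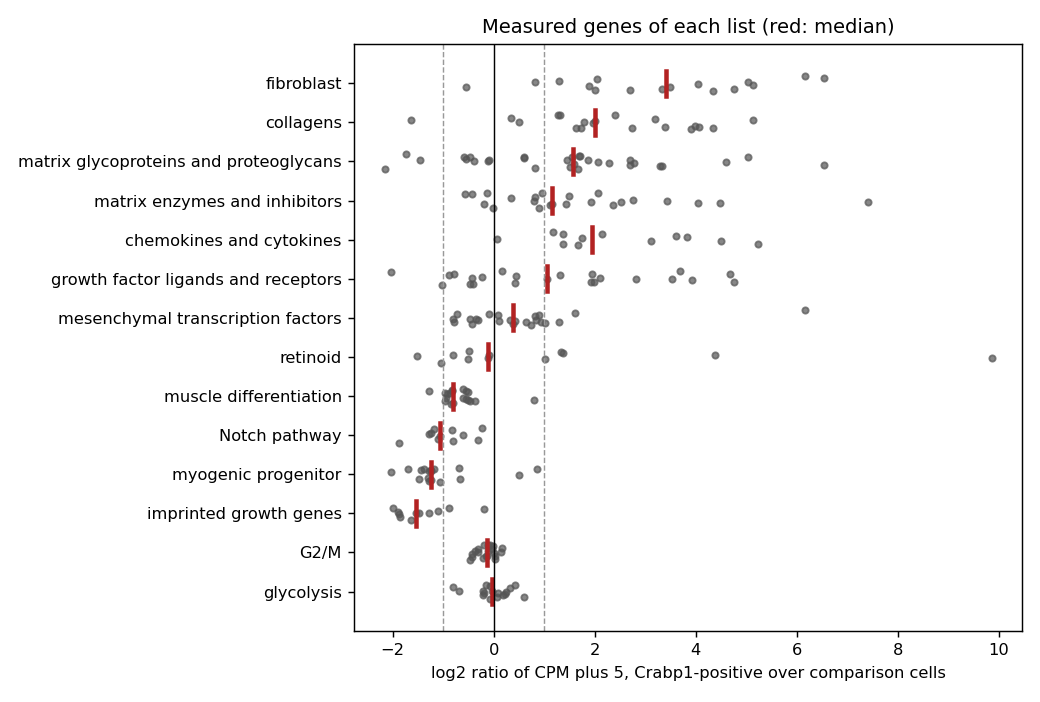
Log2 ratio of CPM plus 5, Crabp1-positive over Pax7-positive (comparison) cells, for the measured genes of 14 lists, 1 point per gene; the red bar is the list median, the solid line is 0 and the dashed lines are 2-fold. The fibroblast list has its median at 3.41 and the imprinted growth genes at −1.54, while the G2/M and glycolysis medians are −0.13 and −0.03.

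Secreted signals and their receptors differed in both directions, more often upward. Of 23 measured growth factor ligands and receptors 12 were higher and 2 lower (median 1.05). Hgf, the ligand that is known to activate satellite cells, had 119.8 CPM in Crabp1-positive and 5.80 CPM in Pax7-positive cells, and its receptor Met had 14.8 and 35.3 CPM. Fgf7 had 144 and 0.808 CPM, and Kitl (stem cell factor) had 96.1 and 21.1 CPM. The activin subunit Inhba had 111 and 2.60 CPM. Fgfr4, the FGF receptor typical of myogenic cells, was lower, at 44.8 against 198 CPM.

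Chemokine and cytokine genes were higher in 11 of 12 measured, and 0 were lower (median 1.95). Ccl2, which draws monocytes, had 294 CPM in Crabp1-positive and 3.00 CPM in Pax7-positive cells, and Cxcl14 had 232 and 14.5 CPM. The alarmin Il33 had 461 and 48.9 CPM, and the gene of its receptor, Il1rl1, had 68.5 and 0.166 CPM in the same groups of cells. Lif and Il6, cytokines of the gp130 family, were low and still higher, at 13.1 and 0.369 CPM and at 12.5 and 1.70 CPM. Areg, an EGF receptor ligand, had 231 and 20.5 CPM. Like Ptgs2, it was among the 5 cAMP target genes that were higher of 12 measured (1 lower). The phosphodiesterase gene Pde4b was the lower one, at 424 against 1017 CPM. Immediate early genes were higher in 5 of 16 measured, among them Fosl1 at 144 against 17.9 CPM.

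Genes that the culture's inhibitors bear on were read from short lists. The medium held Repsox, known as an inhibitor of the type I TGF-beta receptor, and 5 of 9 measured TGF-beta target genes were higher in the Crabp1-positive than in the Pax7-positive cells, 0 lower (median 1.05). Smad7, an inhibitory Smad, had 52.5 and 8.12 CPM, and Thbs1 had 41.0 and 4.41 CPM. For BMP the count was 4 of 7 higher, 0 lower, with Bmp4 at 21.4 against 0.0951 CPM and the inhibitory Smad6 at 33.3 against 5.87 CPM. The BMP response genes Id1 (69.8 and 108 CPM) and Id3 (547 and 457 CPM) stayed within 2-fold. For the Wnt pathway 4 of 10 were higher and 1 lower: the antagonist Dkk2 had 90.3 and 1.24 CPM and Apcdd1 51.2 and 2.88 CPM, while Lgr5 had 3.29 and 13.7 CPM. Axin2, a general target of beta-catenin, had 6.43 and 5.59 CPM, and it was under 10 CPM in both groups.

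Retinoid genes other than Crabp1 did not move as a set. Of 12 measured, including Crabp1, 5 were higher and 2 lower in the Crabp1-positive cells (median log2 ratio −0.11). Cyp26b1, the enzyme that degrades retinoic acid, had 107 CPM in Crabp1-positive and 0.333 CPM in Pax7-positive cells, a log2 ratio of 4.39. The receptors Rarb (85.4 and 39.5 CPM) and Rarg (30.5 and 8.80 CPM) and the retinal reductase Dhrs3 (log2 ratio 1.34) were higher by less. The binding protein gene Fabp5 (188 and 544 CPM) was lower. Aldh1a1 and Aldh1a2, which make retinoic acid, had 0.161 and 0.297 CPM and 6.67 and 11.4 CPM, and Crabp2, the paralogue of Crabp1, had 2.41 and 4.86 CPM.

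The listed mesenchymal transcription factors were mostly within 2-fold. Among 23 measured mesenchymal factors 4 were higher, 0 were lower, and the median was 0.39. Beside Twist2 and Prrx1 these were Foxc2, of the forkhead family (26.6 CPM in Crabp1-positive and 5.39 CPM in Pax7-positive cells), and Twist1 (13.8 and 4.30 CPM). The limb factor Tbx3 had 129.6 and 66.9 CPM, under 2-fold. Runx2, the osteoblast factor (236 and 30.9 CPM), and Ebf1 (441 and 10.5 CPM) are outside this list and were higher by more than 2-fold. Hox genes had 0 of 10 measured past 2-fold, with a median of −0.37.

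Adhesion and cytoskeletal genes set the groups apart by cadherin type. Cdh11, the mesenchymal cadherin, had 392 CPM in Crabp1-positive and 15.6 CPM in Pax7-positive cells, and Cdh2 (N-cadherin) had 131 and 38.3 CPM. Cdh15 (M-cadherin), the cadherin of satellite cells, had 52.5 and 180.1 CPM. Of 20 measured adhesion genes 9 were higher and 1 lower. The calcium-binding S100a6 had 4524 and 928 CPM and S100a4 561 and 26.8 CPM, and 7 of 19 measured cytoskeleton genes were higher and 1 lower.

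Markers of further cell types were mostly absent. Of 11 macrophage genes 0 were measured, 6 were at 0 in the Crabp1-positive cells, and the list summed to 13.3 CPM in them and 7.92 CPM in the Pax7-positive cells. Ptprc, the leukocyte marker, had 0 and 0.0476 CPM, Epcam 0.161 and 0.0357 CPM, and Sox10, the Schwann cell factor, 0 and 0.0476 CPM. Pecam1, an endothelial gene, had 2.09 and 2.73 CPM. Of the 11 tenocyte genes 3 were measured and 2 were higher (median 2.07), the matrix genes Tnc and Col12a1 that the matrix lists also hold, while the tendon-defining genes were low, with Scx at 1.93 and 5.54 CPM and Tnmd at 0.241 and 0.0119 CPM. Of the mural genes Pdgfrb was higher (207 and 44.6 CPM), while Acta2 (308 and 337 CPM) and Rgs5 (2.17 and 1.43 CPM) were not. The list of 12 mural genes summed to 651 and 527 CPM, with 1 of 6 measured higher and 0 lower. Of 4 measured chondro-osteogenic genes Runx2 and Sox5 (284 and 86.2 CPM) were higher and Sox6 (14.2 and 36.4 CPM) lower. Of 3 measured adipocyte genes Ebf1 was higher, and Lpl, lipoprotein lipase (56.8 and 164 CPM), and Zfp423, a preadipocyte factor (29.8 and 72.4 CPM), were lower.

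Genes of the myogenic lineage were lower in the Crabp1-positive cells, though not absent. Of 17 measured myogenic progenitor genes, 13 were lower and none was higher (median log2 ratio −1.25). Pax7 had 361 CPM in Crabp1-positive and 865 CPM in Pax7-positive cells, where the rule required it. The EGFP reporter had 31.0 and 76.3 CPM, Myod1 33.9 and 86.3 CPM and the M-cadherin gene Cdh15 a log2 ratio of −1.69. Pax3, the paralogue of Pax7, had 18.0 and 7.72 CPM. For the 19 muscle differentiation genes 1 was lower and the median was −0.81.

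Summed over all Crabp1-positive cells, the most reduced genes were largely outside the myogenic lists. These sums include the muscle-rich cluster 3 described below, and more myogenic genes were lower when it was left out. The lowest log2 ratios were those of Galnt17, a glycosyltransferase (45.2 and 220.1 CPM, −2.16), and Mgp (−2.16), then Fgfr4 (−2.02), Mest (78.6 and 326 CPM, −1.98), Col6a6 (17.6 and 82.9 CPM, −1.96) and the cadherin Fat3 (37.7 and 159 CPM, −1.94). Imprinted growth genes were prominent: 9 of 11 measured were lower and 0 higher, with a median of −1.54. Cdkn1c, the imprinted inhibitor of cyclin-dependent kinases, had 520.0 CPM in Crabp1-positive and 1886 CPM in Pax7-positive cells. Plagl1 had 87.4 and 338 CPM, Dlk1 42.4 and 169 CPM, Peg3 225 and 710.4 CPM, and Igf2 7.07 and 30.2 CPM. Grb10 had 407 and 757 CPM, under 2-fold. The other genes named lowest were Rasef, Igfbp2, Bcas1, Capn6, Gpc3 and Pknox2, with 13.3 to 139 CPM in Crabp1-positive and 64.9 to 476 CPM in Pax7-positive cells.

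Notch genes were partly lower. Of 11 measured Notch genes 6 were lower and 0 higher (median −1.06), among them the receptors Notch1 (70.7 and 157 CPM) and Notch3 (86.2 and 209 CPM) and the target Heyl (37.1 and 83.0 CPM). Of 7 measured Hedgehog genes 2 were lower and 1 higher (median −0.60). The co-receptors Cdon (83.4 and 276 CPM) and Boc (8.35 and 30.6 CPM) were lower, while the effector Gli2 was higher (94.7 and 37.0 CPM).

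Proliferation genes stayed within 2-fold between the groups. Of 20 G2/M genes and of 20 DNA replication genes 0 passed 2-fold in either direction, with medians of −0.13 and −0.47. After thinning to 2000 UMIs, 62.6% (58.2 to 66.9%) of the Crabp1-positive cells and 68.6% (67.3 to 69.9%) of the Pax7-positive cells had at least 2 G2/M UMIs, while without thinning the shares were 86.7 and 88.7%. The cell cycle inhibitor Cdkn2a was lower (5.62 and 25.5 CPM), and Cdkn1a (235 and 209 CPM) stayed within 2-fold. Glycolysis genes had 0 of 17 past 2-fold and hypoxia genes 1 of 12, the carbonic anhydrase Car9, which was lower. Of 8 measured interferon genes 3 were higher, among them B2m, the light chain of MHC class I (222 and 71.1 CPM).

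The Crabp1-positive cells were not uniform, and myogenic genes were among those that varied within them. Clustered alone, they fell into 3 clusters of 198, 179 and 121 cells. Cluster 1 was led by mitotic genes such as Cdkn3 (61.7 CPM, against 18.5 CPM in the other Crabp1-positive cells) and Birc5 (241 CPM), and also by Il1rl1 (124 and 41.1 CPM) and Col8a1 (208 and 71.5 CPM). Cluster 2 was led by the potassium channel gene Kcnc2 (93.7 and 16.1 CPM), Igfbp3 (474 and 129 CPM) and Cyp26b1 (228 and 67.3 CPM). After thinning, at least 2 G2/M UMIs occurred in 89.2% of cluster 1 and in 17.9% of cluster 2, so the division between them followed the cell cycle as well. Cluster 3 was led by muscle genes, with Ttn (titin) at 681 CPM against 26.1 CPM, Myh3 (embryonic myosin) at 291 against 15.4 CPM and Mymk, the fusion protein myomaker, at 104 against 4.03 CPM.

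Cluster 3 also stood apart in depth and in doublet score. Its median was 40577 UMIs and 7205 genes per cell, against 19276 UMIs in cluster 1 and 15445 UMIs in cluster 2. Its 121 cells held 5247022 of the 12449183 UMIs summed over the Crabp1-positive cells, and 5847 of their 6474 Cdkn1c UMIs. The summed levels above thus carry this weight. Scrublet, which scores a cell by its likeness to simulated mixtures, put 73.6% of cluster 3 over the score set by the expected doublet rate, against 3.03% of cluster 1 and 1.12% of cluster 2. The share was 19.5% (16.1 to 23.2%) over all Crabp1-positive cells, 9.34% in the Pax7-positive cells and 8.45% in all kept MPC cells. Crabp1 had 2581 CPM in cluster 3, against 6174 CPM in the other Crabp1-positive cells, and Dcn had 377 against 985 CPM. The part of mixed droplets in these values was not tested, and results are given below also without cluster 3, a split chosen after seeing the data.

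Leaving out cluster 3 takes away the cells with most muscle and imprinted gene RNA, so lower levels of those genes in the rest follow from the split, and the values are given as a description. Among 9574 genes measured, 1081 (11.3%) were then higher and 640 (6.68%) lower than in the Pax7-positive cells. Of the myogenic progenitor genes 15 were lower, with a median of −2.10, and of the 19 muscle differentiation genes 18 were lower, with a median of −2.29. The imprinted genes had a median of −2.99, with 10 of them lower. Myod1 had 3.89 CPM in the Crabp1-positive cells outside cluster 3, 75.1 CPM in cluster 3 and 86.3 CPM in the Pax7-positive cells. Cdkn1c had 87.1, 1114 and 1886 CPM in the same groups, and Mest had 9.86, 173 and 326 CPM. The fibroblast, collagen and matrix enzyme medians were 3.76, 2.33 and 1.47. After thinning, at least 2 G2/M UMIs occurred in 55.1% (49.9 to 60.2%) of the Crabp1-positive cells outside cluster 3. The shares were 86.0% in cluster 3 and 68.6% in the Pax7-positive cells.

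**Figure D3:**
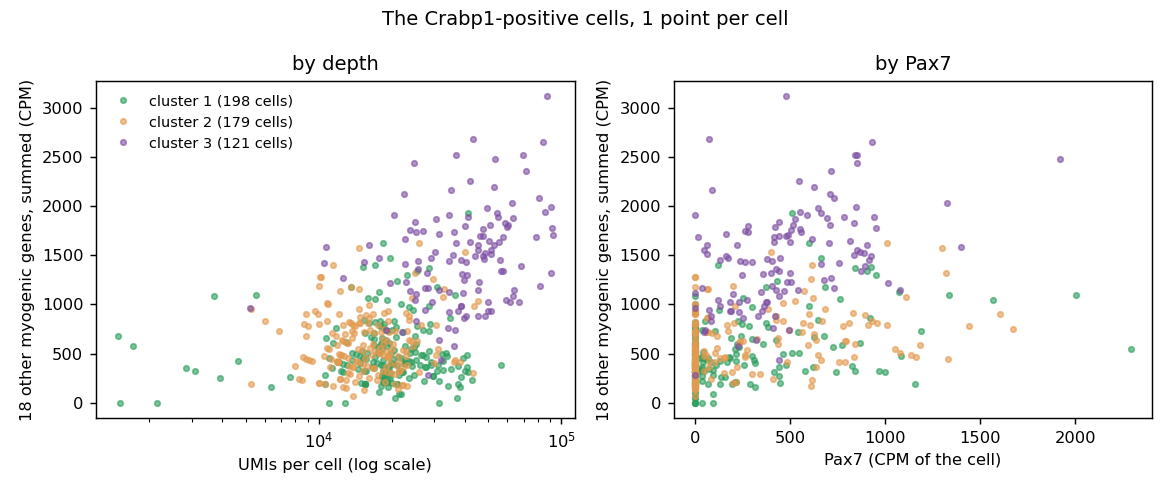
Summed CPM of the 18 myogenic progenitor genes other than Pax7 in each Crabp1-positive cell, against UMIs per cell (log scale, left) and against Pax7 CPM (right), 1 point per cell coloured by cluster. Cluster 3 (121 cells) lies at the upper right of the depth panel, while cells of clusters 1 and 2 mostly lie lower, with and without Pax7.

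Pax7 RNA also occurred in Crabp1-positive cells outside cluster 3, with other myogenic genes below the levels of the Pax7-positive cells to unequal degrees. Outside cluster 3, 377 cells remained, with a median of 18247 UMIs, and 177 of them had 0 Pax7 UMIs, 56 had 1 or 2 and 144 (38.2%) had at least 3. The 144 cells had a median of 18950.5 UMIs and the 177 cells one of 17805 UMIs. In the 144 cells Pax7 had 584 CPM, against 0 in the 177 cells by the split and 865 CPM in the Pax7-positive cells. The EGFP reporter had 38.7 CPM, against 1.23 CPM in the 177 cells without Pax7 UMIs and 76.3 CPM in the Pax7-positive cells. After thinning, EGFP was seen in 6.94% of the 144 cells and in 0 of 175 cells without Pax7 UMIs, where the exact interval reaches 2.09%. Of 15 measured myogenic progenitor genes 6 were higher in the 144 cells than in the 177 cells and 0 lower (median 0.85). These were Pax7, which was higher by the split itself, its reporter EGFP, and Myf5, Des, Cdh15 and Heyl. Pax7 and EGFP also enter the median. Over all genes in this contrast, 126 of 9175 measured (1.37%) were higher and 106 (1.16%) lower. The whole list, Pax7 included, summed to 1308 CPM in the 144 cells, 424 CPM in the 177 cells and 3008 CPM in the Pax7-positive cells. Myod1 had 2.04, 2.77 and 86.3 CPM in these 3 groups, Des (desmin) had 123, 40.0 and 531 CPM, and Cdkn1c had 103, 50.2 and 1886 CPM.

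Levels were also set against the Pax7 UMIs of each group. For every 100 Pax7 UMIs there were 17.6 Cdkn1c UMIs in the 144 cells, 216 in cluster 3 and 218 in the Pax7-positive cells. Myod1 gave 0.349, 14.6 and 9.97 UMIs, Cdh15 3.49, 21.4 and 20.8, and Msc, a repressor of the myogenic programme, 0.233, 2.52 and 3.01. Since cluster 3 was itself set apart by muscle genes and Cdkn1c, low values in the cells outside it follow in part from the split. EGFP gave 6.63 UMIs in the 144 cells, 9.51 in cluster 3 and 8.82 in the Pax7-positive cells, and Des gave 21.1, 71.6 and 61.4.

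**Figure D4:**
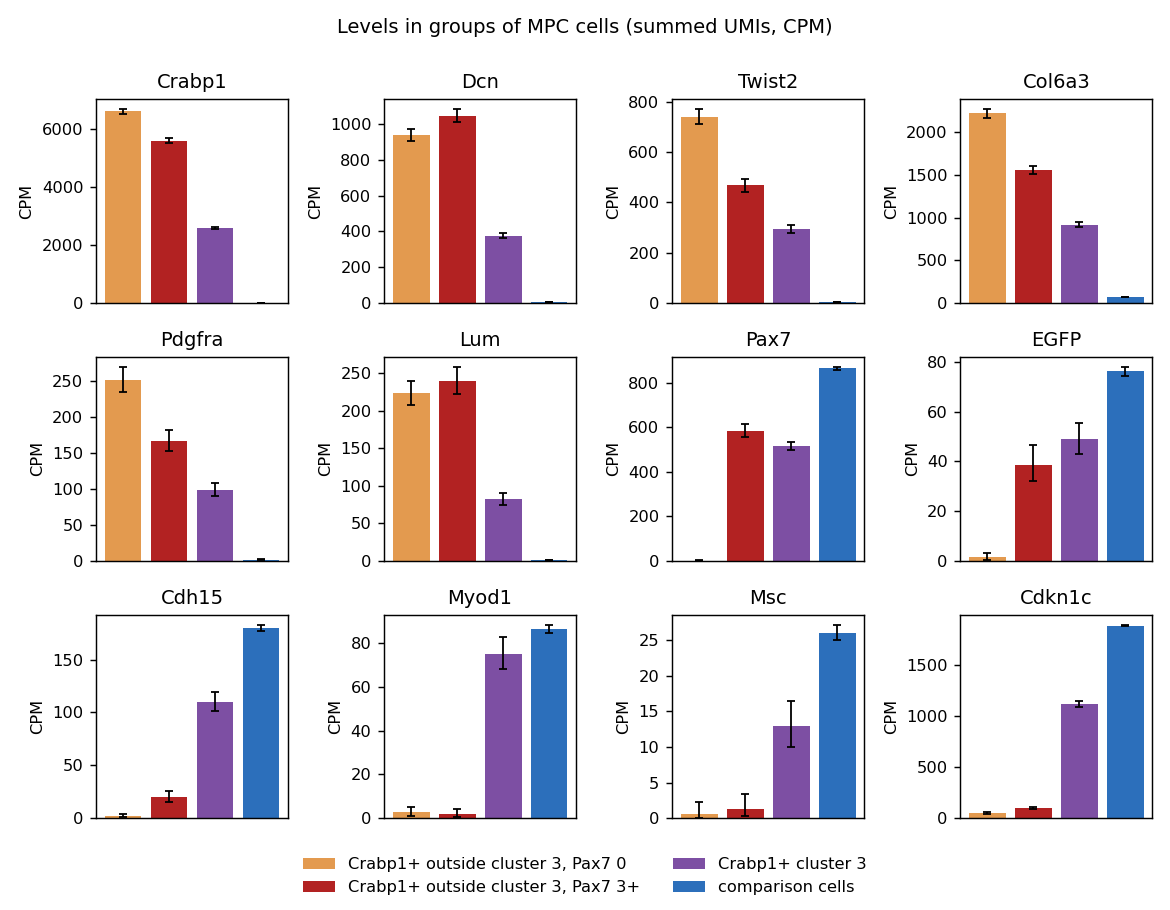
CPM of 12 genes in Crabp1-positive cells outside cluster 3 with 0 and with at least 3 Pax7 UMIs, in cluster 3 and in the Pax7-positive (comparison) cells; bars are CPM and whiskers are 95% Poisson intervals. Pax7 is at 584 CPM and Myod1 at 2.04 CPM in the red bars, while cluster 3 has 515 and 75.1 CPM.

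The Pax7-bearing cells kept the fibroblast genes. Dcn had 1049 CPM in the 144 cells and 939 CPM in the 177 cells without Pax7 UMIs, and Lum had 240.2 and 223 CPM. Twist2 (468 and 743 CPM) and Pdgfra (167 and 252 CPM) stayed within 2-fold, and Mmp3 (902 and 2385 CPM) and Col1a1 (201 and 786 CPM) were lower by more than 2-fold. Between these groups, 126 of 9175 genes measured (1.37%) were higher and 106 (1.16%) lower in the cells with Pax7.

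A minority of the Rgs5-high cells of the same library carried the Crabp1 set. Of these 990 cells 911 had 0 Dcn UMIs and 43 (4.34%) had at least 3, and after thinning Crabp1 was seen in 6.18%. Most of the 990 cells, 915 (92.4%), had at least 3 Pax7 UMIs, and 643 had only 1 or 2 Rgs5 UMIs, so the group is not a set of pericytes by these values. Summed over the group, Crabp1 had 201 CPM in the Rgs5-high cells, and Dcn had 729 CPM in the Crabp1-positive and 53.4 CPM in the Rgs5-high cells. Col1a1 had 379 and 19.2 CPM and Mmp3 1222 and 50.7 CPM in the same groups. Against these cells 780 of 9501 genes (8.21%) were higher and 299 (3.15%) lower in the Crabp1-positive cells. The fibroblast list again had 14 genes higher and 0 lower, with a median of 2.69, and the myogenic progenitor list 11 lower and 1 (Pax3) higher.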

How the data were processed

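Deposited values were raw UMI counts per gene and barcode. Per the submitters' processing notes, the aligner was STAR 2.7.10b and the genome build GRCm39; the collapsing of UMIs, the calling of barcodes and the treatment of doublets are not given in the sources used here. The files list 25828 features under 25804 symbols, and the counts of 22 symbols on several features were summed. Genes are given by symbol. Cells were filtered as the report states. Counts were summed per group of cells, scaled to CPM and compared as log2 ratios of CPM plus 5, with exact Poisson and Clopper-Pearson 95% intervals. A gene was measured at 10 CPM or more in either group. No test was run, since each group is 1 library. The named genes are the 20 highest and 15 lowest log2 ratios at 50 CPM or more in the higher group that held in 3 repeats, plus genes of 36 lists. The cells and lists were chosen with earlier results of these data known. The script was checked on simulated data. Scrublet in scanpy 1.11.5 gave doublet scores. Its automatic threshold marked 0.0101% of the MPC cells and so had not worked, and the score quantile of an expected rate of 0.8% per 1000 cells was used, with no cell removed. Crabp1-positive cells were clustered by Leiden (2000 variable genes, 20 components, 15 neighbours, resolution 0.3; igraph 0.11.9, scikit-learn 1.9.0). edgeR 4.0.16 gave the TMM factors. Python 3.11.15, numpy 2.4.6, scipy 1.17.1, pandas 2.3.3 and matplotlib 3.10.9 were used.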

Additional observations from a re-analysis of the deposited data

How the results depend on the processing

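Every value rests on 1 culture, and counting intervals leave out the spread between cultures. Of the 842 genes higher in Crabp1-positive cells, 798 to 842 remained higher in the alternatives, whose counts ran from 800 to 1158. The count of genes lower, 258, moved to 539 without cells of high doublet score, 718 with Crabp1-positive cells of 0 Pax7 UMIs, 560 at 10000 to 30000 UMIs per cell, 400 with the mean over cells, 614 in cells with under 2 G2/M UMIs and 640 outside cluster 3 (added after seeing the data); elsewhere it was 205 to 375. The count of 640 is the one without the myogenic, deep cluster 3. Of the 121 cells of that cluster, 89 were over the doublet score and 4 had 0 Pax7 UMIs. The part of cluster 3 in the moves of the count was not tested. Higher genes made up 61.7 to 79.6% of those called. The number of Crabp1-positive cells was 181 with 0 Pax7 UMIs, 185 in cells with under 2 G2/M UMIs, 338 at 10000 to 30000 UMIs and 347 to 536 otherwise. The tenocyte list's median, 2.07, turned to −0.018 with no minimum CPM. Of 183 genes followed singly, 0 turned direction and 0 to 12 fell short of the size in a setting. No paired analysis was possible because each group is 1 library and cells share no replicate number.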

Other observations

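At a resolution of 0.6, tried after seeing the data, the Crabp1-positive cells gave 5 clusters of 148, 143, 118, 81 and 8 cells. In the cluster of 81 cells 75 (92.6%) had at least 3 Pax7 UMIs, and 36 of the 81 came from cluster 1, 44 from cluster 2 and 1 from cluster 3. Its median depth was 17675 UMIs per cell. It was led by the neuropeptide gene Gal, at 247 CPM against 26.9 CPM in the other Crabp1-positive cells. Next in rank came the desmosomal gene Pkp1, at 56.5 and 8.48 CPM, the glutathione transferase Gsta4, at 92.8 and 19.6 CPM, and the quinone reductase Nqo1, at 204 and 48.6 CPM. These genes chose the cluster and are a description. The cluster of 8 cells had a median of 2486.5 UMIs.

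The 3 myoblast cells with at least 10 Crabp1 UMIs held 48 Crabp1 UMIs in all, with a median depth of 48018 UMIs per cell. They had 51 Col6a3 and 6 Twist2 UMIs, and 0 UMIs of each of Dcn, Lum, Pax7, EGFP, Cdkn1c and Myod1. Among other leading genes of the Crabp1-positive cells, they had 63 Col1a1 and 37 Ptgs2 UMIs, 1 Slpi UMI and 0 of Mmp3 and Tafa1. Mgp, which was lower in the Crabp1-positive cells, had 199 UMIs in the 3 myoblast cells.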
